A study of Mus musculus with 24 samples.

Results

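The cerebellum of huntingtin knock-in mice was compared with that of wild-type mice by messenger RNA arrays. All cerebellum arrays of the study were taken, 12 of 24, and all probe sets that were not array controls and averaged at least 4 on the log2 scale over these 12 arrays. The first group, 6 arrays, came from mice carrying HdhQ111 on both alleles, labelled Q111/Q111, and the second, 6 arrays, from mice with Hdh+ on both alleles, labelled Q7/Q7; the number in each name is the length of the glutamine stretch in huntingtin. Age is given only as a range of 3 to 10 weeks for every sample. The labels do not give sex, strain background or pooling, and they call the replicates biological, numbered 1 to 6, but name no separate mice, so each p-value measures only how these samples varied. The other 12 arrays, from striatum of the same genotypes, served to set the tissues side by side.

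Huntingtin (Htt, formerly Hdh) is a large scaffold protein of vesicle transport and transcription, and expansion of its CAG repeat causes Huntington's disease. In a knock-in mouse the repeat is lengthened in the mouse's own gene, so the mutant protein is made wherever Htt is normally active, the cerebellum included. The disease strikes projection neurons of the striatum first. The cerebellum is built mainly of granule neurons, which excite Purkinje cells, the sole output of its cortex, and it is a tissue in which neurons are comparatively spared.

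The arrays carried the marks of the labelled tissue. Gabra6 and Neurod1, markers of granule neurons, lay between 13.69 and 13.95 and between 13.99 and 14.44 log2 over the 12 arrays, and the Purkinje cell gene Pcp2 between 14.19 and 14.63. Neurod6 of cortical neurons (at most 3.71) and Drd2 of striatal neurons (at most 2.69) lay under the minimum of 4. Of 8 listed forebrain neuron genes on the array 3 passed it, among them Ppp1r1b, which lay between 7.55 and 8.625. Of 45037 probe sets, 19619 (43.6%) passed that minimum, and they represent 10290 genes. Array medians ran from 7.21 to 7.46, with a mean of 7.32 in Q111 and 7.41 in wild type. Arrays correlated at 0.983 to 0.992 within a genotype and 0.980 to 0.991 between genotypes, and no pair was identical. The means of numbers 1 to 3 and of numbers 4 to 6 lay close together: their difference had an SD over probe sets of 0.0504, against 0.178 for the genotype difference. The smallest SE of the genotype difference among the 45 genes called below was 0.0593. Whether values were aligned between the sets before deposit is not in the labels and was not tested. Results are given without and with this number set in the model, which leaves 10 and 9 residual degrees of freedom.

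Sex-linked genes differed between arrays and, in part, between genotypes. Eif2s3y, a Y-linked translation factor gene, read 6.10, 5.06, 5.47, 6.71, 6.53 and 3.12 in wild-type arrays 1 to 6, and 4.20, 4.08, 4.09, 3.15, 3.14 and 5.68 in the Q111 arrays. Wild-type array 6 and Q111 array 6 thus lay on the side of the other genotype, while the other 5 arrays of each group did not overlap (difference -1.44, SE 0.57, limma adjusted p = 0.271). Xist, the RNA that silences 1 X chromosome in females, lay between 7.26 and 7.34 in all 6 arrays numbered 1 to 3 at its brightest probe set, while a second ranged from 5.27 to 8.11 in these arrays. In numbers 4 to 6 the brightest read 4.60, 4.52 and 11.41 in wild type and 10.15, 10.99 and 4.59 in Q111. In these arrays high Xist went with low Eif2s3y, and low Xist with high Eif2s3y. Levels of these genes were thus spread unevenly over the genotypes, and differences of sex cannot be fully told apart from those of genotype. Ttr, the main secreted product of the choroid plexus, ranged from 6.73 to 12.35 in wild type and from 6.26 to 13.15 in Q111, so its spread within each genotype covered several log2 units.

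**Figure D1:**
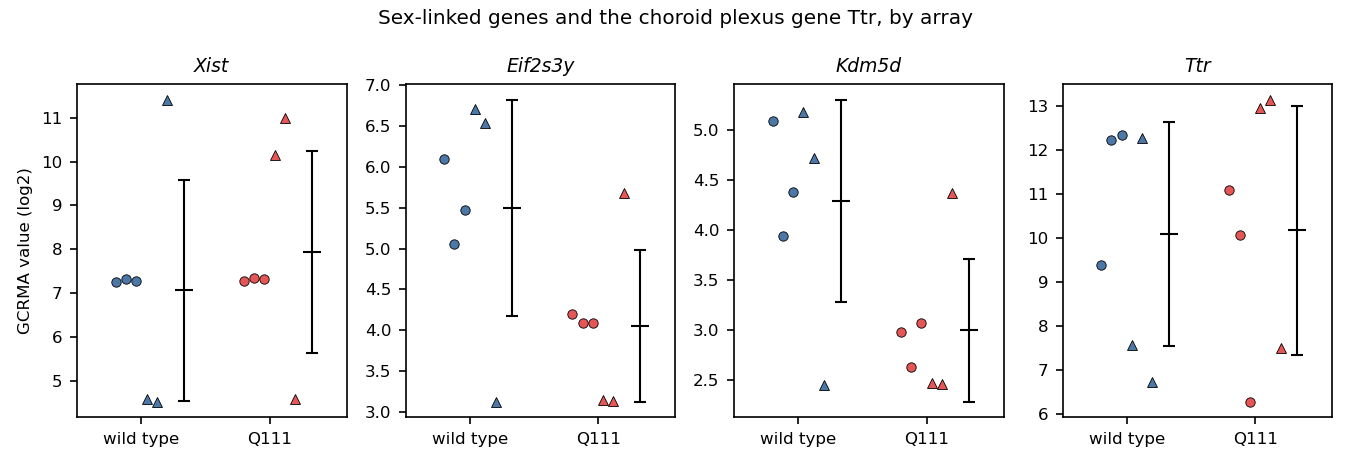
GCRMA values (log2) of Xist, the Y-linked genes Eif2s3y and Kdm5d and the choroid plexus gene Ttr in each wild-type (blue) and Q111 (red) cerebellum array; circles are numbers 1 to 3, triangles numbers 4 to 6, and the bar is the mean with its SD (n = 6). This Xist probe set sits at 7.26 to 7.34 in the circles of both genotypes, and 1 array of each genotype lies on the other genotype's side for Eif2s3y.

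Htt messenger RNA was measured by 4 probe sets, which were not placed relative to the repeat and so do not check the genotype. The brightest ranged from 7.66 to 8.12 in wild type, with a median of 7.98, and from 7.50 to 7.95 in Q111, with a median of 7.66. The groups overlapped. Its mean was 7.68 ± 0.16 for Q111 against 7.95 ± 0.16 (SD, n = 6; difference -0.27, two-sided exact permutation p = 0.0260), and it missed the threshold over all probe sets (limma adjusted p = 0.210). The other 3 probe sets differed by -0.12, -0.15 and -0.20, with exact permutation p = 0.113, 0.152 and 0.238; the one at -0.15 was under the minimum level.

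Sequence is shown for 3 genes on which the results turn: Nudt19, with the largest fall among called genes, Gas5, called by 3 of its 4 probe sets, and Idi1, the called gene of cholesterol synthesis. Each line holds the 250 bases before the start of the gene, 5′ to 3′ on its own strand, from RefSeq on GRCm38.p6.
Nudt19, chr7:35555929-35556178, minus strand: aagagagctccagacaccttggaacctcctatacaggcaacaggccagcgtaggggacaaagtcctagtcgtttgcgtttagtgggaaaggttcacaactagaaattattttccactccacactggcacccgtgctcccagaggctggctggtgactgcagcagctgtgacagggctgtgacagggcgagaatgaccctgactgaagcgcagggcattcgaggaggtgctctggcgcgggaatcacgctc
Gas5, chr1:161034916-161035165, plus strand: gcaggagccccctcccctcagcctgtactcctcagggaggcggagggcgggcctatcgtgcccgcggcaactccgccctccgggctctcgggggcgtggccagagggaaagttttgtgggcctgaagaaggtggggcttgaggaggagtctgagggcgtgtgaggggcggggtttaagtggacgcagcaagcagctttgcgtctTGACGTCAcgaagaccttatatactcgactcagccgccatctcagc
Idi1, chr13:8885356-8885605, plus strand: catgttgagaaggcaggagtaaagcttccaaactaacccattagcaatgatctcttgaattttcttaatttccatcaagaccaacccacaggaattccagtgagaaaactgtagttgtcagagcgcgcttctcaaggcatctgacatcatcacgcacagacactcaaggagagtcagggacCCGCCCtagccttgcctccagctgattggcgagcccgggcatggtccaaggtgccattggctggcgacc
Capitals mark a cAMP response element (TGACGTCA, which reads the same on both strands) in Gas5, whose first base lies 46 bases before the start, and a GC box (GGGCGG, here on the opposite strand) in Idi1, 69 bases before it. Gas5 also holds the GC box, left in lower case. Promoters of 38 of the 45 genes called below were matched by symbol, and motifs were sought in these 250 bases on both strands. The cAMP response element was in 1 of the 38 (2.63%), Gas5, and in 1.77% of the 27025 genes in the table. The GC box was in 24 of the 38 (63.2%) and in 35.4% of all genes, measured here or not. It was also in 86.7% of 15 cholesterol synthesis genes, 88.9% of 9 immediate early genes and 93.3% of 15 clock genes. Among 8 host genes of small nucleolar RNAs the share was 62.5%. Called genes were not compared with other measured genes for this motif. The sterol regulatory element TCACNCCAC was in 0 of the 38 and in 1 of 15 cholesterol synthesis genes, Hmgcs1, against 1.22% of all genes. The core of the interferon response element was in 3 of the 38, Nsg2, Pnrc1 and Rbm43, which fell, and in 3.46% of all genes. The E-box CACGTG was in 4 of the 38 (10.5%) and 6.86% of all genes, and the D-box TTATGTAA in 0 of the 38 and 0.977% of all genes. The motifs do not overlap where capitals are shown; matches are letters, not known binding sites.

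At an adjusted p of 0.05 in limma, 97 probe sets (0.494% of those tested) differed between the genotypes, 14 higher in Q111 (0.0714%) and 83 lower (0.423%). Of these, 51 reached 1.5-fold and 15 reached 2-fold, and 3 passed the minimum only through the genotype in which they were higher, the other mean being under 4. The share of falls, 85.6%, depended on scaling, with 52.9% after further quantile normalization (32 higher, 36 lower) and 49.3% after median centring (37 higher, 36 lower). Adding the number set as a term left 47 calls (0.24%), 7 higher (0.0357%) and 40 lower (0.204%), all among the 97. Leaving out 1 array gave between 17 calls (without Q111 array 3) and 241 (without Q111 array 6). At an unadjusted p under 0.05 there were 2870 (14.6%). With 1 probe set per gene, the brightest, 45 genes of 10290 were called (0.437%), 7 higher (0.068%) and 38 lower (0.369%), and 21 (0.204%) with the number set, 3 higher (0.0292%) and 18 lower (0.175%). The 6 Q111 and 6 wild-type arrays did not overlap for 37 of the 45 genes, and for 1.17% of all probe sets (Q111 higher in 0.183%, lower in 0.989%). With Xist as a covariate 55 probe sets were called, with Eif2s3y as a covariate 2 (a probe set each of Nudt19 and Sbsn), and with a choroid plexus score 89; the part of these genes in the calls was not otherwise tested. The last 2 covariates were chosen after seeing the data.

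Nudt19, which encodes a peroxisomal hydrolase of coenzyme A, fell most among the called genes. Its brightest probe set read 8.11, 7.67, 7.61, 7.80, 7.88 and 7.75 in wild-type arrays 1 to 6 and 5.92, 6.38, 5.39, 6.33, 5.76 and 6.04 in Q111. The groups lay over 1 log2 unit apart, and the fall was 1.83 log2 (SE 0.15, 3.56-fold, limma adjusted p = 3.39e-04, 0.00106 with the number set). The other Nudt19 probe set fell by 0.95 (SE 0.11, adjusted p = 0.00308). Of the 45 genes, 6 kept their call whichever array was left out, Nudt19, Fgf7, Gm5083, Polr3f, Proca1 and Tmem242. Another 13 kept it in at most 3 of the 12 fits with 1 array left out, among them Msh6 (2 fits). Idi1 kept its call in 4 of these fits and Gas5 in 5. With Eif2s3y as a covariate the difference of Nudt19 was -1.78 (adjusted p = 0.00916).

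Ssh1, a slingshot phosphatase that activates the actin-severing protein cofilin, read 6.74, 6.05, 6.84, 6.75, 6.93 and 6.41 in wild type and 5.72, 5.26, 5.24, 5.54, 5.26 and 6.05 in Q111. Q111 array 6 reached wild-type array 2, and the other arrays did not overlap (difference -1.11, SE 0.17, limma adjusted p = 0.0162). Sbsn, which encodes the secreted epithelial protein suprabasin, read 6.68, 6.59, 6.13, 6.61, 6.23 and 6.72 in wild type and 5.68, 5.07, 5.21, 6.06, 4.81 and 5.49 in Q111. All Q111 arrays were lower (difference -1.11, SE 0.19, adjusted p = 0.0247), and its other probe set fell by 1.20 (SE 0.13, adjusted p = 0.00249). Gm5083, a predicted gene, read 6.896, 6.99, 6.34, 6.56, 6.71 and 7.23 in wild type against 5.87, 5.79, 5.91, 5.98, 5.93 and 6.02 in Q111. Its Q111 arrays were the most uniform of these examples (difference -0.87, SE 0.13, adjusted p = 0.0115). Fxyd6, a modulator of the sodium pump, read 8.23, 7.80, 7.79, 8.26, 8.21 and 7.97 in wild type and 7.19, 7.37, 7.32, 7.39, 6.75 and 7.59 in Q111. The groups did not overlap (difference -0.77, SE 0.13, adjusted p = 0.0268). All 4 genes were also called with the number set, at adjusted p = 0.0272, 0.0469, 0.0229 and 0.0481 in this order.

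Among the 3 rises called both ways, Ifit2, an interferon-induced inhibitor of translation, read 3.82, 4.07, 4.21, 3.63, 3.91 and 4.17 in wild type and 5.15, 4.58, 5.21, 5.82, 5.19 and 4.52 in Q111. Its wild-type mean, 3.97, was under the minimum, so it was tested only because its Q111 arrays were higher; the difference of 1.11 log2 (SE 0.19, limma adjusted p = 0.0268, 0.0488 with the number set) is given as a description. Tmem242, a mitochondrial membrane protein gene, read 7.20, 7.61, 7.56, 7.79, 7.26 and 7.27 in wild type and 8.15, 8.22, 8.26, 8.37, 7.96 and 8.40 in Q111. All Q111 arrays were higher (difference 0.78, SE 0.11, adjusted p = 0.0109). B230217C12Rik, an uncharacterised transcript, read 8.03, 8.12, 8.63, 8.28, 8.097 and 8.22 in wild type and 8.84, 8.64, 8.87, 9.05, 9.03 and 9.06 in Q111. Wild-type array 3 came within 0.01 of the lowest Q111 array (difference 0.69, SE 0.11, adjusted p = 0.0165).

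**Figure D2:**
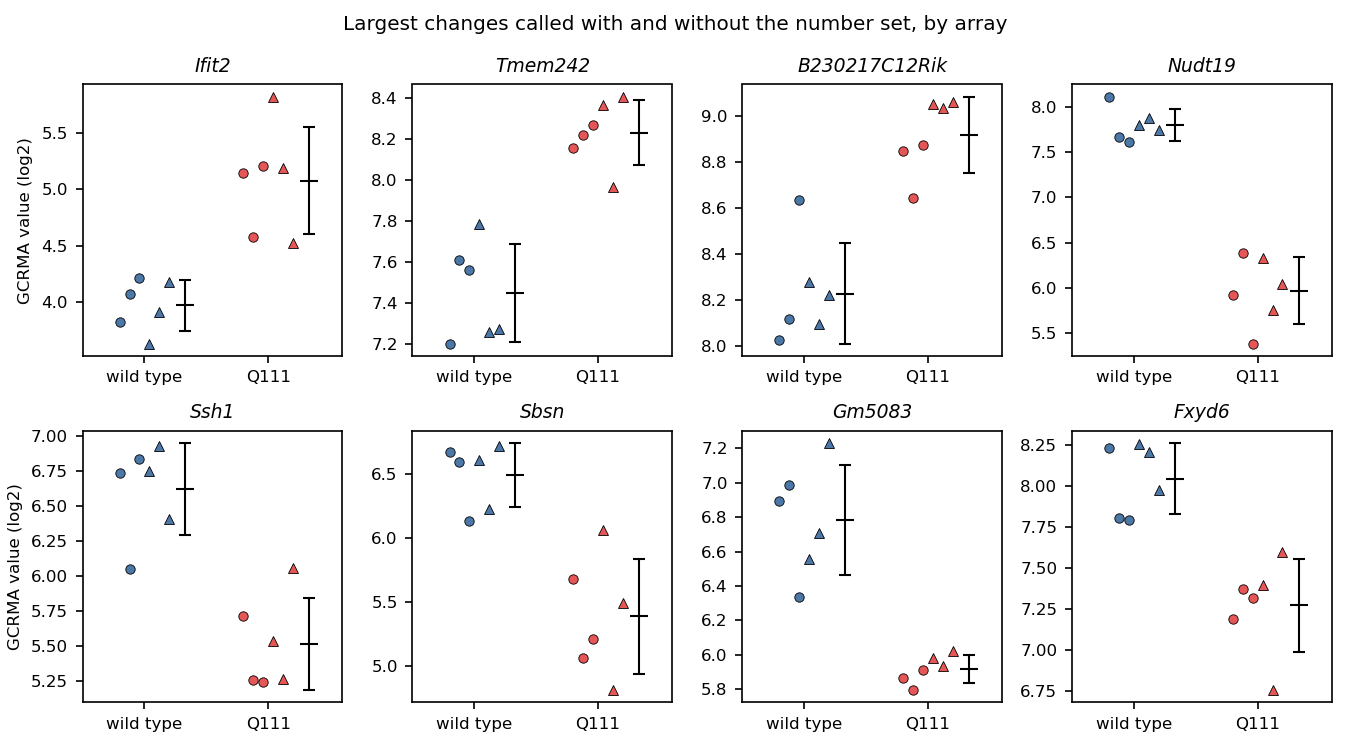
GCRMA values (log2) in each wild-type (blue) and Q111 (red) cerebellum array of the 3 rises and the 5 largest falls called with and without the number set; circles are numbers 1 to 3, triangles numbers 4 to 6, and the bar is the mean with its SD (n = 6). Nudt19 falls by 1.83 and separates the genotypes furthest, and in Ssh1 the highest Q111 array reaches the lowest wild-type array.

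The other 4 rises were called without the number set only. Xaf1, an interferon-induced factor of cell death, was 5.64 ± 0.59 in Q111 against 4.23 ± 0.52 in controls (SD, n = 6; difference 1.42, SE 0.28, limma adjusted p = 0.0452), and the groups overlapped. Col5a1, a fibrillar collagen gene of meninges and vessel walls, was 6.40 ± 0.61 against 5.12 ± 0.21, without overlap (difference 1.28, SE 0.23, adjusted p = 0.0342). Srd5a3, a polyprenol reductase needed for protein glycosylation, differed by 0.77 (adjusted p = 0.0384) at its brightest probe set, which can cross-hybridise, and by 0.16 and 0.11 at the other 2 (adjusted p = 0.600 and 0.608). Kcnn2, a calcium-activated potassium channel that shapes Purkinje cell firing, was 9.31 ± 0.08 against 8.94 ± 0.11 (difference 0.37, SE 0.07, adjusted p = 0.0342), again without overlap. Both interferon-induced genes were chosen for their calls, and no interferon list was tested.

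The remaining falls ran from -0.86 to -0.31. They are ordered here by what each gene is known for, an order made after the calls and not tested. Known from neurons are Cabp1, a calcium sensor of voltage-gated calcium channels (-0.62, limma adjusted p = 0.0368), and Astn2, an adhesion protein of migrating granule neurons (-0.52, 0.0247). So are Stum (-0.71, 0.0234) and the endosomal protein gene Nsg2 (-0.32, 0.0368). In bulk tissue, fewer cells of a type and less RNA per cell cannot be told apart. Known from transcription and RNA are Polr3f, a subunit of RNA polymerase III (-0.62, adjusted p = 0.00982), Maz (-0.61, 0.0439), Lbh (-0.58, 0.0452), Trps1 (-0.41, 0.0368), Ash2l of the histone H3 methyltransferase complexes (-0.37, 0.0486), Pnrc1 (-0.31, 0.0368), and the RNA-binding protein genes Rbm43 (-0.61, 0.0368) and Rbm12 (-0.52, 0.0368). The second Polr3f probe set, near background at 4.75 in both groups, differed by 0.00. Flvcr1, first described as a heme exporter (-0.75, adjusted p = 0.0234), and the heme-binding protein gene Hebp1 (-0.54, 0.0134) also fell.

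Further falls were those of Klk6, a serine protease made by oligodendrocytes (-0.78, limma adjusted p = 0.0367), Fgf7, a growth factor (-0.54, 0.00982), and B3gnt2, which extends sugar chains (-0.86, 0.0486). Fgf7 ranged around 7.81 ± 0.14 in Q111 against 8.34 ± 0.09 in controls (SD, n = 6), while its second, dim probe set differed by -0.05 (adjusted p = 0.957). They also included Proca1 (-0.77, adjusted p = 0.00982), Irak1bp1 (-0.57, 0.0368), Ccdc88a, which encodes girdin (-0.39, 0.0368), Rftn1 of lipid rafts (-0.41, 0.0452), Svip, an inhibitor of endoplasmic reticulum protein disposal (-0.34, 0.0368), and Dnajc24 (-0.49, 0.0247). The rest were Phtf1 (-0.58, 0.0264), Fam43a (-0.44, 0.0247), Tsc22d2 (-0.41, 0.0439), Rida, a deaminase of reactive imines (-0.41, 0.0486), Glcci1 (-0.39, 0.0384) and Atraid (-0.36, 0.0341). Msh6, Gas5 and Idi1 are described with their lists. The 14 called genes with more than 1 probe set above the minimum had the same sign at all of them, except Polr3f.

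**Figure D3:**
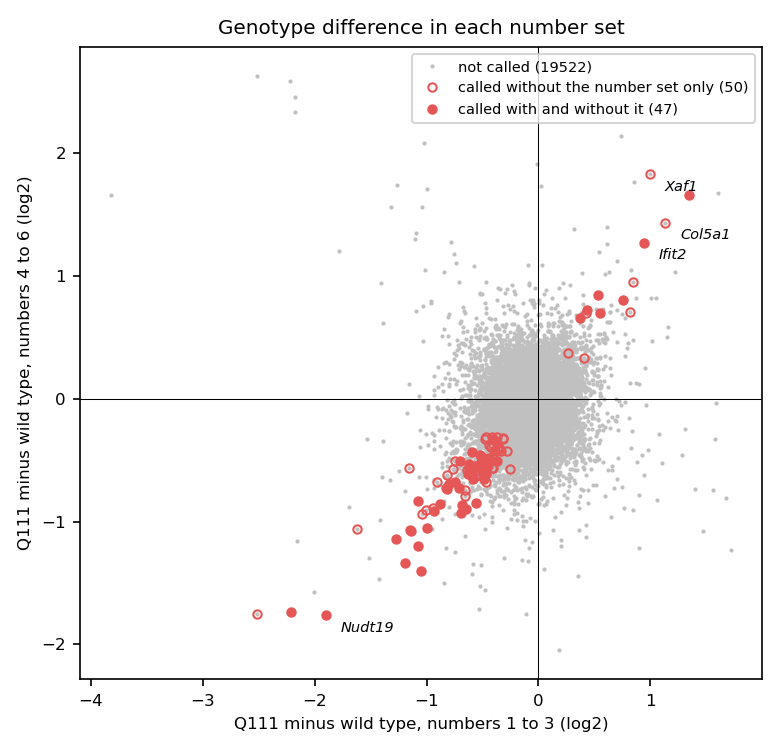
Log2 difference, Q111 minus wild type, within numbers 1 to 3 (horizontal) and within numbers 4 to 6 (vertical) for the 19619 probe sets; grey points were not called, and red circles are the 97 called, filled for the 47 that were also called with the number set. All 97 lie in the quadrants where both sets have the same sign.

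The number sets were also examined one by one. All 97 called probe sets had the same sign in both, against 57.4% of all probe sets; the calls were made on these same arrays, so this is a description. Numbers 1 to 3 alone gave 0 calls in limma, with 2127 probe sets (10.8%) at an unadjusted p under 0.05. Numbers 4 to 6 alone gave 3 calls (0.0153%; 0.0051% higher, 0.0102% lower), with 1541 (7.85%) unadjusted: Nudt19 (-1.76), a Cdc37l1 probe set (1.66) and a Golga7b probe set (-1.71), of which the last was not among the 97. The genotype difference itself was tested between the sets, with 0 calls and 1222 (6.23%) at an unadjusted p under 0.05. The differences of both sets correlated at 0.150 over the 19619 probe sets, which share arrays.

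Some genes were called only at a probe set that is not their brightest, 32 of the 77 different symbols. Cdc37l1, a cochaperone relative, was called at 3 of 5 probe sets, all higher (1.5002, 0.63 and 0.51; limma adjusted p = 0.00249, 0.0162 and 0.0232), while its brightest, at 10.24 in Q111 and 10.51 in wild type, differed by -0.26 (adjusted p = 0.0868). The direction for this gene therefore differs between its probe sets. Tiparp, an ADP-ribosyltransferase induced through the aryl hydrocarbon receptor, was called at 2 of 3 (-0.81 and -0.99), and its brightest differed by -0.18 (adjusted p = 0.485). Pank1, the kinase that starts coenzyme A synthesis, was called at 1 of 3 (-0.72, adjusted p = 0.0234), with -0.23 at its brightest and 0.22 at the third. Further such falls were those of the potassium leak channel Kcnk3 (-1.34, adjusted p = 0.0439, a description, since the Q111 mean of 3.98 was under the minimum; -0.01 at its brightest), Med20 of the Mediator complex (-1.02, 0.0247; -0.14) and the histocompatibility gene H2-D1 (-0.79, 0.0368), a member of a family whose copies may share probes. Of the 8 called probe sets with no gene symbol, the lowest difference was -2.13; another, at -1.97, had a Q111 mean of 3.51, under the minimum, and is a description. The genes named here were chosen after their values were seen.

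Of the genes in 3 lists of lipid metabolism 1 was called, Idi1. The mevalonate and cholesterol pathway turns acetyl-CoA into sterols that neurons partly make themselves and partly take up from glia. Idi1, the isomerase of isopentenyl diphosphate, was the called gene among 18 measured. It ranged from 9.28 to 9.53 in Q111, with a median of 9.34, and from 9.59 to 9.82 in wild type, with a median of 9.73. The groups did not overlap (difference -0.37, SE 0.07, limma adjusted p = 0.0341, 0.0368 with the number set), and its second probe set differed by -0.34 (adjusted p = 0.122). Of the 18 genes 17 were lower, 8 at an unadjusted p under 0.05, with a median of -0.21 against -0.05 over all genes. Dhcr7, the last reductase of the pathway, differed by -0.55 (adjusted p = 0.0813), and Cyp51, which demethylates lanosterol, by -0.44 (0.0712); both are named after their values were seen. All 12 fatty acid synthesis genes were lower with 0 called, at a median of -0.16, led by the desaturases Fads2 (-0.38, adjusted p = 0.0753) and Fads1 (-0.21, 0.165). Of 12 genes of sterol sensing and uptake 0 were called and 8 were lower (median -0.02; Lrp8 -0.31 and Stard4 -0.29). Of all genes, 66.7% were lower. Median centring moved the cholesterol and fatty acid medians to -0.12 and -0.06, beside an all-probe-set median of 0.04.

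Immediate early genes, which neurons transcribe within minutes of activity, had the lowest list median, -0.52. Of 12 measured 0 were called at their brightest probe set, 11 were lower and 6 had an unadjusted p under 0.05. Nr4a2, an orphan nuclear receptor, differed by -1.41 (SE 0.31, limma adjusted p = 0.0691), and Jund by -0.48 (0.0701). Fos differed by -1.02 (SE 0.37, adjusted p = 0.227), with SDs of 0.895 in Q111 and 0.52 in wild type; it is named after its value was seen. A dimmer Nr4a2 probe set was called, at 4.94 ± 0.23 in Q111 against 6.21 ± 0.41 in controls (SD, n = 6; difference -1.27, SE 0.17, adjusted p = 0.00982). The list median was -0.32 in numbers 1 to 3 and -0.65 in numbers 4 to 6. How the animals were handled before tissue was taken is not in the labels.

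Of 18 clock genes 0 were called. Their median was -0.18, with 15 lower, against 66.7% of all genes, and at an unadjusted p under 0.05 there were 5 lower and 1 higher, against 14.6% of all probe sets. The repressors Per3 (-0.62, limma adjusted p = 0.0855) and Cry1 (-0.33, 0.122) had the smallest p, but the other 3 Per3 probe sets differed by 0.20, 0.03 and -0.05. The list median was -0.06 in numbers 1 to 3 and -0.26 in numbers 4 to 6, and the time of day of sampling is not in the labels. Of 10 host genes of small nucleolar RNAs 9 were lower and 1 was called, Gas5, a non-coding RNA that also binds the glucocorticoid receptor. Its brightest probe set was 10.25 ± 0.18 in Q111 against 10.85 ± 0.21 in controls (SD, n = 6; -0.60, SE 0.11, adjusted p = 0.0341, 0.0481 with the number set), without overlap. The other Gas5 probe sets differed by -0.91 (adjusted p = 0.0374), -0.52 (0.0381) and -0.39 (0.317). The host gene list's median was -0.19, with Snhg6, named after its value was seen, at -0.25 (adjusted p = 0.123).

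**Figure D4:**
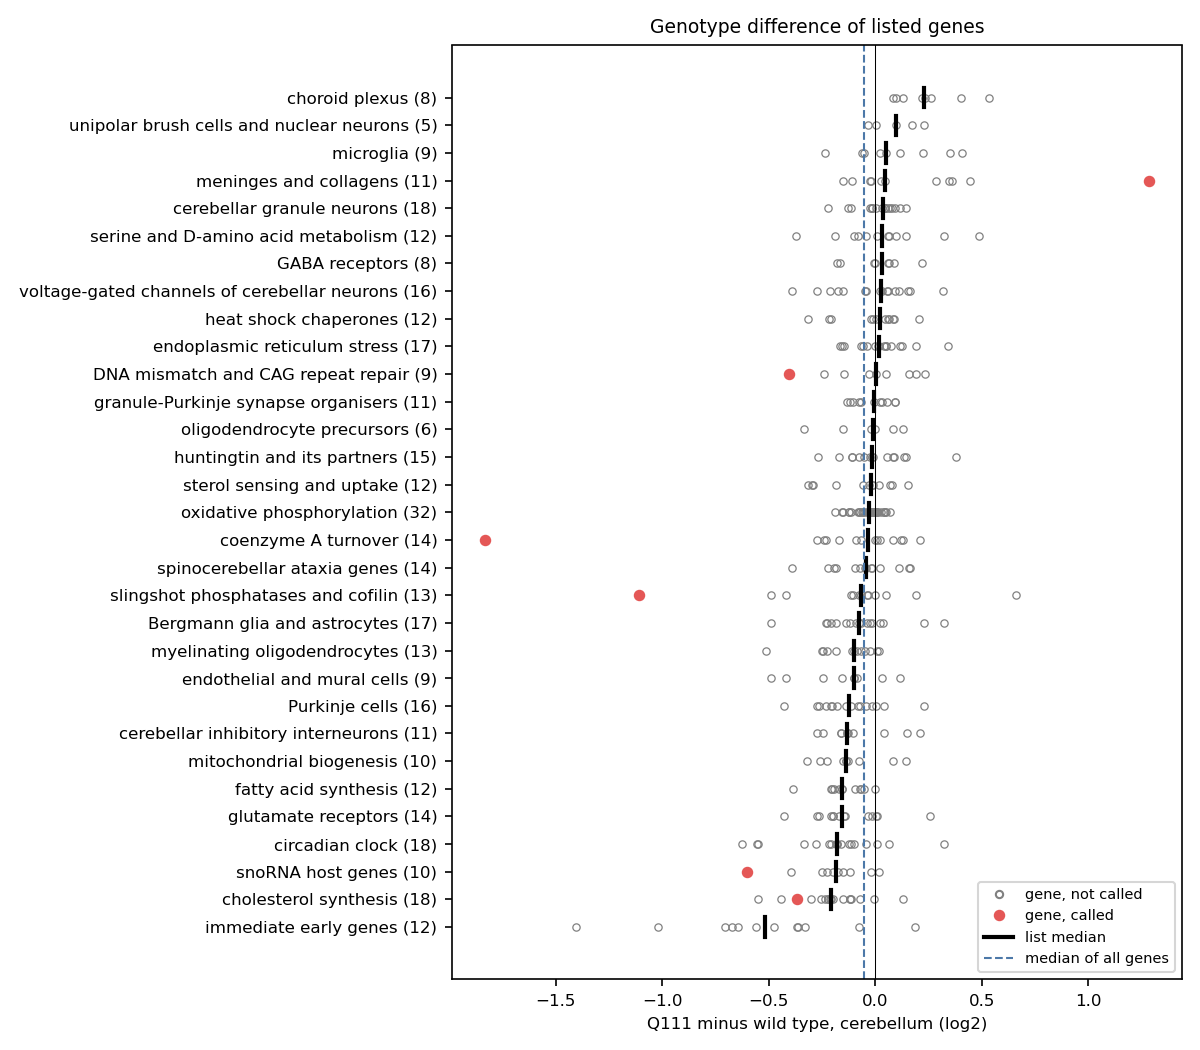
Log2 difference, Q111 minus wild type in cerebellum, for each measured gene (circle; filled red if called) of the 31 lists with at least 5 measured genes, whose number is in parentheses; black bars are list medians and the dashed line is the median of all genes, -0.05. Immediate early genes have the lowest median, -0.52, and most lists lie close to the dashed line.

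Other lists had 1 called member each. Of 14 genes of coenzyme A turnover 7 were higher and 7 lower, and only Nudt19 was called at its brightest probe set (list median -0.03). Pank1, of the same list, was called at a dimmer probe set, as given above. Of 13 genes of the slingshot and cofilin list 10 were lower and only Ssh1 was called (median -0.06); the cofilin kinase gene Tesk1, named after its value was seen, had -0.49 (limma adjusted p = 0.193). Of 4 calcium-activated potassium channel genes only Kcnn2 was called (median -0.06). Of 9 repair genes of DNA mismatches and CAG repeats Msh6, a subunit of the mismatch sensor MutS alpha, was called, at 7.73 ± 0.13 in Q111 against 8.14 ± 0.11 in controls (SD, n = 6; -0.41, adjusted p = 0.0368), and the median was 0.0037. Of 11 genes of meninges and collagens Col5a1 was called, 7 were higher and the median was 0.04; the score of that list ranged from 6.86 to 7.44 in Q111 and 6.67 to 7.04 in wild type. In all, 7 of 407 listed genes were called at their brightest probe set (1.72%), against 0.437% of all genes, and the lists were drawn up with such results known.

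Cell type lists had 0 called members apart from Col5a1. Of 18 granule neuron genes 11 were higher (median 0.04; Neurod1 -0.11 and Slc17a7 -0.13). Of 16 Purkinje cell genes 13 were lower, at a median of -0.13, with the transcription factor gene Lhx1 at -0.43 (limma adjusted p = 0.152; 0.35 at its other, dimmer probe set) and Ppp1r17 at -0.21 (0.168). The Purkinje score, the mean level of these genes on an array, ranged from 10.52 to 10.69 in Q111 and from 10.52 to 10.82 in wild type, and the genotypes overlapped through wild-type array 2. Medians were -0.13 for 11 inhibitory interneuron genes (Grm2 -0.28, Nxph1 -0.25), -0.07 for 17 genes of Bergmann glia and astrocytes (Gja1 -0.21, Glul 0.23), -0.10 for 13 genes of myelinating oligodendrocytes (Opalin -0.51, Aspa -0.23) and -0.10 for 9 vessel genes (Slco1a4 -0.49, Cldn5 -0.42). They were -0.01 for 6 oligodendrocyte precursor genes (Cacng4 -0.33, Olig1 0.13), 0.05 for 9 microglia genes (C1qb 0.41, C1qa 0.35) and 0.098 for 5 genes of unipolar brush cells and nuclear neurons (Tbr1 0.23, Calb2 0.098).

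Choroid plexus genes varied widely between arrays of a genotype. All 8 were higher in Q111 at a median of 0.23, with a median of -1.07 in numbers 1 to 3 and 1.46 in numbers 4 to 6 and 0 at an unadjusted p under 0.05 (Clic6 0.40, Otx2 0.22). The score of these genes ranged from 3.81 to 7.59 in Q111 and from 4.29 to 7.02 in wild type. Of the lists for other tissue few genes passed the minimum: 1 of blood (Hbb-b2 0.12), 2 of brainstem (Hoxa5 -0.10, Slc6a2 0.07) and 3 of forebrain neurons (Ppp1r1b -0.44, Penk -0.06). The forebrain score ranged from 7.40 to 7.88 in Q111 and from 7.72 to 7.96 in wild type.

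The remaining lists had 0 genes called at their brightest probe set. Nrxn2, of the synapse organisers, was called at a dimmer probe set (-0.72, limma adjusted p = 0.0355) and differed there by 0.67 in striatum. A probe set shared by Phgdh and Gm8096 was also called (-0.44, 0.0341). Of 15 genes of huntingtin and its partners 0 were called, with a median of -0.01 (Htt -0.27, Cbs 0.38). Of 14 spinocerebellar ataxia genes 0 were called, with a median of -0.05; Atn1, itself a repeat disease gene, had -0.39 (limma adjusted p = 0.188) and Atxn7 -0.19. Of 32 oxidative phosphorylation genes 0 were called, 22 were lower and the median was -0.03 (Atp5g1 -0.19, Cox5b -0.15), and of 10 genes of mitochondrial biogenesis 8 were lower (median -0.14; Tfb1m -0.32, Gabpa -0.26). Endoplasmic reticulum stress (17 genes; Pdia4 0.34, Atf4 -0.16) and heat shock chaperones (12 genes; Bag3 -0.32, Dnajb1 -0.21) each had a median of 0.02 and 0 calls. Of 14 glutamate receptor genes 11 were lower, at a median of -0.16 with 0 called (Grik5 -0.43, Gria3 -0.27). GABA receptors (8 genes; Gabrd 0.22, Gabrg1 -0.18), voltage-gated channels (16 genes; Kcng4 -0.39, Scn4b 0.32) and serine metabolism (12 genes; Phgdh -0.37, Dao 0.49) had medians of 0.03 each, and granule to Purkinje synapse organisers (11 genes; Adgrb3 -0.13, Ptprs -0.08) of -0.01, with 0 called in these lists.

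Chromosomes 2 and 11 held 6 called genes each, of 828 and 839 tested (0.725% and 0.715%). Chromosome 7 held 5 of 735 (0.680%), Klk6, Maz, Nudt19, Sbsn and Svip. Chromosome 5, which carries Htt, held 4 of 684 (0.585%), Atraid, Cabp1, Srd5a3 and Ssh1. Chromosome 17 held 4 of 472 (0.847%), and over all genes the share was 0.437%. Chromosomes 10, 12, 14 and X held 0 of 516, 375, 357 and 335 genes tested. No called gene had another among the 20 annotated genes on either side. Stretches wider than this were not tested. Of 30 measured genes flanking Htt, 15 on each side, 0 were called in limma and 4 had an unadjusted p under 0.05. Their median was -0.03, with 13 higher and 17 lower, and the largest difference was that of Mfsd10, at -0.42 (adjusted p = 0.143).

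Set beside the striatum, 38 of the 45 genes had the same sign there, including all 7 rises, and 9 were called in the striatum's own fit, in which 2.37% of probe sets were called (0.688% higher, 1.68% lower). Nudt19 (-1.71), Ssh1 (-1.03), Sbsn (-1.09), Klk6 (-0.86), Tmem242 (0.97), Srd5a3 (1.10), Kcnn2 (0.40), Phtf1 (-0.60) and Atraid (-0.44) are these 9. Over probe sets, 75 of the 97 had the same sign, against 58.7% of all, and the 19 called in both were 19.6% of the cerebellum calls and 4.09% of the 465 striatum calls. The striatum fit held only the 19619 probe sets kept by their level in cerebellum, so probe sets seen in striatum alone were left out. Cabp1 and Fxyd6 had the opposite sign in striatum (0.60 and 0.45), and Col5a1 differed there by 0.16; the difference between tissues missed the threshold for each (limma adjusted p = 0.0704, 0.0971 and 0.109).

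The test of that difference called 3 probe sets (0.0153%), each at an adjusted p of 0.0118. The Nr4a2 probe set named above differed by -1.27 in cerebellum and 0.63 in striatum (limma adjusted p = 0.126), a difference of -1.89 (SE 0.28). Jun, a component of the AP-1 transcription factor, differed by -0.37 in cerebellum (adjusted p = 0.159) and 0.51 in striatum (0.0105), a difference of -0.88 (SE 0.14). Lrp4, the agrin receptor of synapses, differed by -0.21 (adjusted p = 0.226) and 0.50 (0.0112), a difference of -0.72 (SE 0.11). Its cerebellum means, 4.64 in Q111 and 4.86 in wild type, were close to the minimum of 4. For Nr4a2 and Lrp4 the cerebellum arrays of the genotypes did not overlap, and for Jun they did. The brightest Nr4a2 probe set differed by -1.41 and 0.25, and of the other 2 in cerebellum 1 was lower (-1.79) and 1 higher (0.11).

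**Figure D5:**
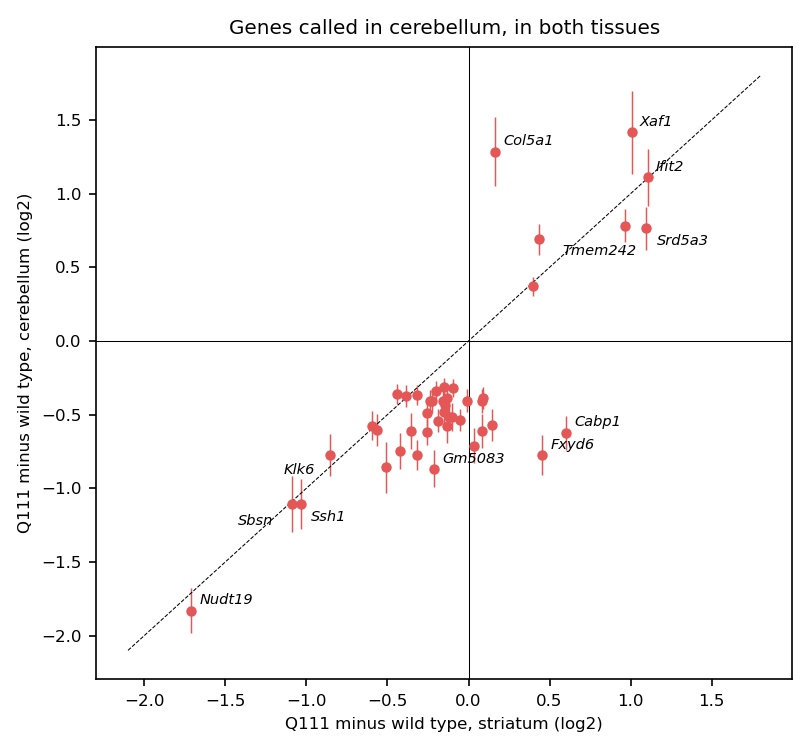
Log2 difference, Q111 minus wild type, of the 45 genes called in cerebellum, in striatum (horizontal) and in cerebellum (vertical, with its SE); the dashed line marks equal differences. Nudt19, Sbsn, Ssh1 and Ifit2 lie near the line, and Cabp1 and Fxyd6, lower in cerebellum, had positive differences in striatum.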

How the data were processed

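RNA came from a Trizol extraction with Qiagen clean-up and was biotin-labelled for Affymetrix arrays, per the labels' protocols. The authors deposited log2 values made from probe intensities with GCRMA, per the submitters' processing notes. The version, the log base and the genome build are not given in the sources used here, and the range of the values, -0.77 to 15.64 in cerebellum, was read as a scale of base 2. GCRMA corrects background by probe sequence, so values near its floor understate folds. The number of arrays limits the precision.

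Of 45101 probe sets 64 controls were left out, and a mean of at least 4 was required. The platform annotation of the probes pairs 17466 of the kept probe sets with 1 symbol, 505 with several and 1648 with none; 10265 of 10290 genes were matched to the GRCm38.p6 gene table by Entrez identifier. Genotypes were compared with limma 3.58.1 in R 4.3.3 (lmFit and eBayes, Benjamini-Hochberg over 19619 probe sets, threshold 0.05; residual degrees of freedom 10, prior 3.31). Each adjusted p is from these fits. Further fits held the number set, or tested genotype by number set and genotype by tissue (24 arrays).

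A gene is represented by its brightest probe set. Named genes are all called genes, values by array for up to 5 rises and 5 falls called both ways, Htt, called members of 36 lists or otherwise the 2 with the smallest p, and genes of the interactions. The comparison and the lists were chosen with earlier results of these data known. The script was tested on simulated data. Alternatives covered the filter, scaling, prior, weights, thresholds, covariates, number sets, replicate block and each array left out.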

Additional observations from a re-analysis of the deposited data

Results flagged for a closer look

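Of 92 groups of 6 arrays examined, those of the called genes and Htt, 3 held an array far from the other 5, where chance flags about 1 in 20 groups. For Polr3f, wild-type array 3 was lowest at 7.82, with the next at 8.01. For Idi1, Q111 array 2 was highest at 9.53, with the next at 9.37. For Rbm43, wild-type array 2 was lowest at 7.03, with the next at 7.23. Each of these arrays lay towards the other genotype. The genotype difference itself differed between cerebellum and striatum for 3 probe sets in limma: by -1.89 for Nr4a2, -0.88 for Jun and -0.72 for Lrp4, each with a lower mean in Q111 cerebellum and a higher mean in Q111 striatum. Within cerebellum only the Nr4a2 probe set was called, and within striatum only those of Jun and Lrp4.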

How the results depend on the processing

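From 97 called probe sets, the count moved to 47 with the number set (47 shared), 20 with the replicate block (18 shared), 0 and 3 in numbers 1 to 3 and 4 to 6 alone, 47 without a filter (40 shared), 267 with array weights (97 shared), 55 with Xist as a covariate (49 shared), 2 with Eif2s3y as a covariate, and 13 and 264 at thresholds of 0.01 and 0.10. It stayed within 1.5 times with a minimum of 6 (94), quantile normalization (68), median centring (73), a trended robust prior (129), all 24 arrays (106) and the choroid plexus covariate (89). Leaving out 1 array gave 17 to 241 calls: 18, 195, 44, 56 and 29 without wild-type arrays 1, 2, 4, 5 and 6, and 55, 17, 40 and 241 without Q111 arrays 2, 3, 5 and 6. The cause was not tested. Of the 45 called genes, 21 kept their call with the number set, 7 with the replicate block, 22 with either scaling, 20 with Xist and 1 with Eif2s3y as a covariate; 0 changed sign in any alternative.

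The replicate numbers did not pair the arrays: deviations of same-numbered arrays correlated at -0.42 to 0.11, and 0 of 6 Q111 arrays correlated best with their own number. The 3 calls between tissues became 0 with the replicate block and 10 after quantile normalization, stayed at 3 with the number set, and were 3 to 27 without 1 array (27, 5 and 5 without wild-type arrays 2, 4 and 5, and 11 and 12 without Q111 arrays 4 and 6). Between number sets the 0 calls stayed at 0 under quantile normalization and without a filter, and were 0 to 1 without 1 array (1 without wild-type array 4). Uncalled genes whose difference changed sign were Olig1 (-0.0774) and Otx2 (-0.37) in numbers 1 to 3, Hoxa5 (0.0097), Slc6a2 (-0.0286) and Penk (0.0747) in numbers 4 to 6, Penk (0.0315) and Ptprs (0.0184) after median centring, and Hoxa5 (0.00065), Slc6a2 (-0.0314), Penk (0.0522) and Xist (-2.03) with Eif2s3y as a covariate; Slc6a2 ran from -0.0036 (without Q111 array 5) to 0.126 (without Q111 array 6). Medians of 7 of 36 lists changed sign under quantile normalization and of 12 under median centring.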
